A study of Caenorhabditis elegans with 9 samples.

Results

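This report compares the 2 single mutants of the worm inner nuclear membrane with each other, emr-1(gk119) against lem-2(tm1582). Its members are the samples that carry these labels, 4 of the 9 in the series, with 2 libraries per mutant, and the 19567 of 43901 loci whose coverage averaged 1 or more across all 9 libraries. The emr-1(gk119) animals were strain BN20 and the lem-2(tm1582) animals strain BN19, and RNA was taken from whole young adults. The other libraries were 3 of wild type (N2) and 2 labelled lem-2(tm1582) emr-1(RNAi), called the double libraries here after that label. The study's RNAi methods name strain BN19 for the double depletion. Its list of normalized samples instead holds 2 each of BN19, BN20 and BN24, so the strain of the double libraries is unclear. The other libraries share the fit, and their values are given for reference. All animals were grown from synchronised first-stage larvae for 53 h at 20 °C, to the stage of young adults without embryos, in liquid medium with RNAi bacteria and the inducer IPTG, which carried either emr-1 double-stranded RNA or an empty plasmid control. Which bacteria each single mutant ate is not given in the sources used here. The study asked what the loss of either protein does to transcription, and the direct comparison shows where the mutants differ from each other.

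EMR-1 is the worm emerin and LEM-2 the relative of mammalian MAN1 and LEMD2. Both sit in the inner nuclear membrane, carry the LEM domain that binds the DNA-bridging protein BAF-1, and depend on the lamin LMN-1 for their place at the nuclear rim, where silent chromatin tends to lie. In worms either protein can be lost with mild effects, whereas the loss of both kills embryos, which is why they are described as overlapping in function.

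Values are coverage, the median read depth over the bases of an exon after quantile normalization, with the median over exons taken per transcript and the mean over transcripts per locus. Differences are emr-1(gk119) minus lem-2(tm1582) on log2(coverage + 1) with the standard error, from a limma fit over all loci, and a locus is called at a Benjamini-Hochberg adjusted p under 0.05. The emr-1(gk119) libraries stood apart from each other. Over 8111 well covered loci the median absolute log2 difference was 0.38 within emr-1(gk119), 0.18 within lem-2(tm1582) and 0.32 to 0.43 between libraries of the 2 mutants. Depth in reads is unknown, since the values are not counts. Markers of muscle, gut, neurons, epidermis, germ line and oocytes had coverage, as whole animals should. The adult collagen col-19 had a coverage of 800.3 and 719 in emr-1(gk119) against 984 and 1083 in lem-2(tm1582). In these 4 libraries the sperm genes spe-9 and spe-11 were at or under 5.17, except for spe-11 in emr-1(gk119) replicate 1, at 86.6. Not all sperm genes were low. The 30 major sperm protein genes (msp) reached medians of 9.52 to 9.94 on the log2 scale across the same libraries. Bulk RNA of whole worms cannot tell fewer cells of a type from less RNA per cell.

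The targeted genes were read first. emr-1, on chromosome I at 1842445 to 1843227 of WBcel235, had a coverage of 0 and 1.5 in the libraries labelled emr-1(gk119) against 44.5 and 44.4 in lem-2(tm1582). The emr-1(gk119) libraries were near 0, and wild type, at 52.1, 44.6 and 60.5, was close to lem-2(tm1582). The double libraries, labelled as treated with emr-1 RNAi, had 134.78 and 73.5, above every other library. Their emr-1 coverage thus does not show the depletion that the label names. The study reports many dead embryos from these animals and took them as its check that the RNAi had worked. The source of the high coverage was not tested. The difference between the single mutants was -4.85 ± 0.45 (limma, Benjamini-Hochberg adjusted p = 0.00529). lem-2, on chromosome II at 14063450 to 14066646, had 16.11 and 23.8 in emr-1(gk119) against 54 and 53.2 in lem-2(tm1582), so that the lem-2(tm1582) libraries were the higher ones and all 3 wild-type libraries, at 32.2, 29.3 and 39, lay between. The lem-2 difference of -1.41 ± 0.22 was called (limma, Benjamini-Hochberg adjusted p = 0.0407), but lost its call whichever of the 4 libraries was left out, with differences from -1.67 to -1.14. The lem-2 coverage does not show whether the tm1582 allele makes a protein.

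The genes of their partners were not called. lmn-1, the only worm lamin, had 129 and 107 in emr-1(gk119) against 125 and 135.20 in lem-2(tm1582), and the groups overlapped. baf-1 had 425 and 221 and 248 and 295, where the lem-2(tm1582) libraries lay between both emr-1(gk119) libraries. Of 22 nuclear envelope genes, all tested, 0 rose and 2 fell in emr-1(gk119), beside 0.746% and 0.358% of all loci. The 2 that fell were the mutated emr-1 and lem-2 themselves. At an unadjusted limma p under 0.05, 0 were higher and 7 lower, beside 8.33% and 9.41% of all loci. The median difference of the list was -0.26, beside -0.03 over all loci, and 17 members had a negative and 5 a positive difference. Named after their values were seen, sun-1, the germline SUN-domain protein, had 58.9 and 29.4 against 69.3 and 73.3, and the membrane nucleoporin npp-22 had 48.7 and 56.7 against 97.3 and 72.4, and neither was called. npp-20, a nucleoporin that the list does not hold, also named after its values were seen, fell, with 25.3 and 29.3 against 63 and 62.4 (limma, Benjamini-Hochberg adjusted p = 0.0286), a call lost whichever library was left out.

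Apart from the mutated genes, none of the loci beside them was called. Within 20 kb of emr-1, 11 loci were tested and 1 was called, emr-1 itself, and within 20 kb of lem-2, 5 were tested and lem-2 alone was called. Over all loci 1.10% were called and 17.7% were at an unadjusted limma p under 0.05. At that unadjusted threshold, 3 of the 10 tested neighbours of emr-1 and 0 of the 4 of lem-2 differed. The 3, named after their values were seen, were C53H9.3 with 169 and 144 against 230.1 and 258, chaf-2, of a chromatin assembly factor, with 26.2 and 31.6 against 41 and 47.4, and tag-96 with 18.2 and 17.3 against 8.44 and 10, so that C53H9.3 and chaf-2 were the lower and tag-96 the higher in emr-1(gk119). egl-30, the Gq alpha subunit just upstream of emr-1, had 66.6 and 95.7 in emr-1(gk119) against 81.5 and 73.4 in lem-2(tm1582). The neuropeptide gene nlp-12, on the other side, had 14.4 and 21.2 and 13.6 and 13.9. Around lem-2, W01G7.4 had 33.9 and 23.1 against 27.5 and 43.4, with overlapping groups. xrn-1, a 5′ to 3′ exoribonuclease, had 11.42 and 9.11 against 13.6 and 14.9, a difference of -0.44 ± 0.23 (limma, Benjamini-Hochberg adjusted p = 0.365).

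Across the genome 216 loci were called, 146 with more and 70 with less coverage in emr-1(gk119), which are 1.10%, 0.746% and 0.358% of the 19567 tested. Of the 16301 protein-coding loci tested, 117 were higher (0.718%) and 64 lower (0.393%), in all 181 (1.11%). By transcript, 167 of 24939 were higher (0.670%) and 78 lower (0.313%), in all 245 (0.982%). In all 216 both emr-1(gk119) libraries lay on one side of both lem-2(tm1582) libraries, as they did in 42.5% of all tested loci. The median difference was 2.22 in the loci called higher and -1.78 in those called lower. The calls depended on the number of libraries. A limma fit of the 4 libraries alone called 0 loci, with 3189 at an unadjusted p under 0.05 against 3472 in the fit of all 9. Without the double libraries, 70 loci were called higher and 39 lower, a fit chosen after seeing the data. Leaving out emr-1(gk119) replicate 1 or 2 left 73 or 50 calls, and leaving out lem-2(tm1582) replicate 1 or 2 left 20 or 18. All 216 loci kept their direction in these 4 fits, as they must where the groups do not overlap, so this is no sign of stability.

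**Figure D1:**
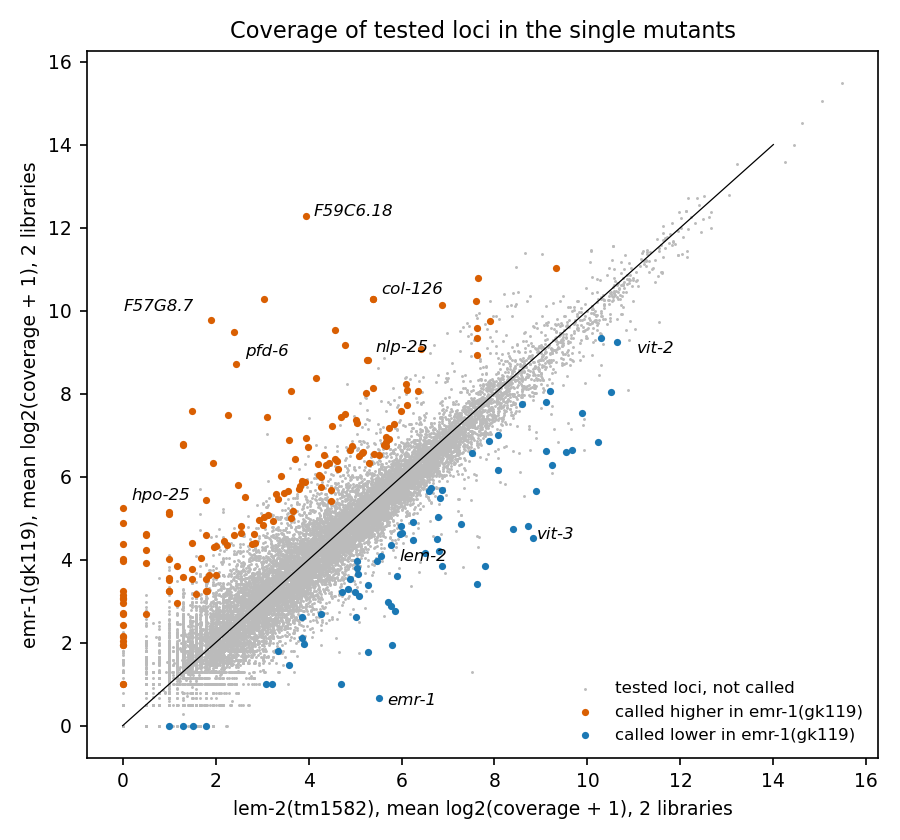
Each point is 1 of the 19567 tested loci, placed by its mean log2(coverage + 1) over the 2 lem-2(tm1582) libraries (x axis) and the 2 emr-1(gk119) libraries (y axis), with the line of equal coverage. The 146 loci called higher in emr-1(gk119) are orange and the 70 called lower blue. Most loci follow the line, while F59C6.18, F57G8.7 and pfd-6 stand far above it and emr-1 and vit-3 far below.

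The loci called higher in emr-1(gk119) were mostly those where emr-1(gk119) departed from wild type. Their median log2 change from wild type was 2.71 in emr-1(gk119) against 0.34 in lem-2(tm1582), and 141 of the 146 were called higher than wild type in emr-1(gk119), against 1 in lem-2(tm1582). Of the 70 loci called lower, 62 were called lower than wild type in emr-1(gk119) against 0 in lem-2(tm1582), with median changes of -1.55 and -0.03. Both contrasts use the same wild-type libraries, and the same mutant libraries by which these loci were selected. The counts in this paragraph therefore describe the loci and give no separate support. Over all loci these contrasts called 16.6% and 0.0460%. Both emr-1(gk119) libraries were above the other 7 libraries in 92 of the 146 and below them in 58 of the 70, as in 3.14% and 5.53% of all tested loci.

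The largest rises were at loci that were almost silent elsewhere. F59C6.18, on chromosome I at 10516102 to 10516428, had 6222 and 4030.1 in emr-1(gk119) against 17.9 and 11.3 in lem-2(tm1582), a difference of 8.36 ± 0.34 (limma, Benjamini-Hochberg adjusted p = 0.000209). Wild type had 2, 1 and 1 and the double libraries 34.7 and 25.3, so that emr-1(gk119) was alone in its high coverage. F57G8.7, on chromosome V at 16329149 to 16330272, had 1053 and 736 against 3 and 2.5, a difference of 7.88 ± 0.38 (limma, Benjamini-Hochberg adjusted p = 0.000377). Y49G5A.1, also on chromosome V, had 1714 and 895 against 9.83 and 5.22, and K03D3.2, on chromosome IV, had 803 and 641 against 5.17 and 3.5. Both rises were called in every fit with 1 library left out. None of these uncharacterised genes is given a function in the sources used here.

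Genes with names were in the same group, as were further loci known by sequence names alone. pfd-6, a subunit of the prefoldin chaperone that hands unfolded actin and tubulin to their folding machine, had 448 and 389 in emr-1(gk119) against 3.11 and 6.22 in lem-2(tm1582), with 6.33, 5.86 and 14.9 in wild type. The difference was 6.26 ± 0.45 (limma, Benjamini-Hochberg adjusted p = 0.00182), and the emr-1(gk119) coverage was over 10 times that of any other library. hpo-25, named from a screen for hypersensitivity to a pore-forming toxin, had 37.8 and 35.9 in emr-1(gk119) and was listed at 0 in both lem-2(tm1582) and all wild-type libraries (limma, Benjamini-Hochberg adjusted p = 0.000106). T28A11.4 had 41.7 and 19.3 and was listed at 0 in each of the other 7 libraries (limma, Benjamini-Hochberg adjusted p = 0.00153). F58E2.2 had 114 and 105 against 2 and 1, and C36C5.14 had 157 and 231 against 1.61 and 2. In all, 20 loci, 0.102% of those tested, had a lowest emr-1(gk119) value at least 10 times the highest of the other 7 libraries. This pattern was chosen after the values were seen. All 20 were called, which so wide a gap makes likely, so the calls add no support. Some of them, such as T28A11.4, met the coverage minimum through emr-1(gk119) alone.

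**Figure D2:**
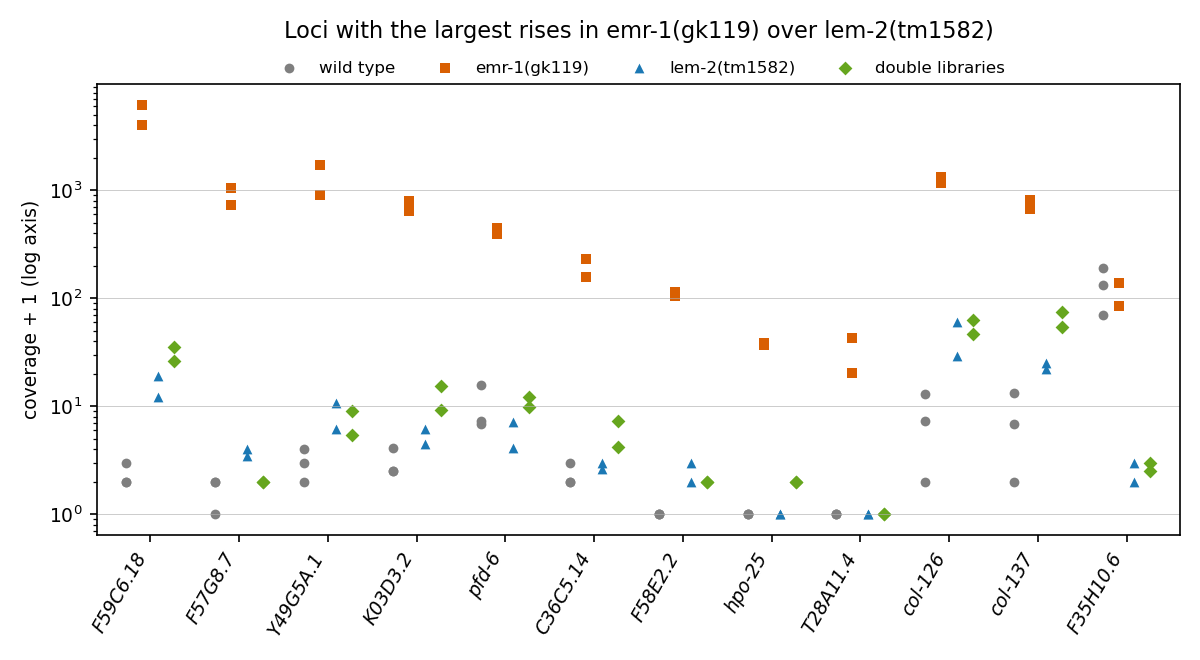
Coverage + 1 on a log axis in each of the 9 libraries for 12 of the loci with the largest rises, with 1 symbol per library and colours for the 4 groups. In the first 11 loci the emr-1(gk119) squares are above every other library, whereas F35H10.6 is low in the lem-2(tm1582) and double libraries and high in wild type.

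Some cuticle collagens rose in emr-1(gk119). The cuticle is a collagen coat that the epidermis lays down anew at each molt, with collagens that differ between rounds. Of the 158 genes named col with a number, 136 were tested. They held 12 calls upward and 2 downward, beside 0.746% and 0.358% of all loci. The median difference was 1.06, beside -0.03 over all loci, and 70 of the 136 (51.5%) differed by over 1 upward, against 6.01% of all loci. col-137, on chromosome IV at 16601480 to 16602776, had 675 and 809 in emr-1(gk119) against 21.2 and 24.3 in lem-2(tm1582), with 5.83, 12.2 and 1 in wild type and 73.2 and 53.6 in the double libraries. The difference was 4.96 ± 0.74 (limma, Benjamini-Hochberg adjusted p = 0.0353). col-176, on chromosome X, had 135.04 and 222 against 5.89 and 9.78, a difference of 4.34 ± 0.35 (limma, Benjamini-Hochberg adjusted p = 0.00329). The neighbouring col-126 and col-127 had 1174 and 1335 and 1157 and 1334 in emr-1(gk119) and the same values of 59.2 and 28.2 in lem-2(tm1582), so reads may be shared between these adjacent copies. Every emr-1(gk119) value of these 4 genes was above all other libraries.

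Not all collagens differed in this direction. col-135 had 2.97 and 2 in emr-1(gk119) against 36.4 and 38.8 in lem-2(tm1582), and it was also low in the double libraries, at 2 and 6.82. It fell by 3.48 ± 0.46 on the log2 scale (limma, Benjamini-Hochberg adjusted p = 0.0235). col-143, which is named after its values were seen, had 27.8 and 16.7 against 100.1 and 115.69 and is the other call downward. Among the upward calls, col-154, also named afterwards, was called in every fit with 1 library left out, with 1628 and 1901 against 226 and 174 (limma, Benjamini-Hochberg adjusted p = 0.00153). The calls of col-126, col-127 and col-137 were lost whichever of the 4 libraries was left out, with differences from 4.38 to 5.42, from 4.37 to 5.41 and from 4.83 to 5.09.

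The collagens that shape the furrows and the body showed differences of the same sign without a call. All 21 were tested and 0 were called in either direction, beside 1.10% of all loci. At an unadjusted limma p under 0.05, 6 were higher, beside 8.33%. In all, 20 had a positive difference. Their median was 0.96, from 0.50 to 1.51 with 1 library left out, and in 16 of them both emr-1(gk119) libraries were above both lem-2(tm1582) libraries, against 18.4% of all loci. lon-3, whose loss makes worms long, had 306 and 259 in emr-1(gk119) against 50.4 and 60.4 in lem-2(tm1582), a difference of 2.33 ± 0.44 (limma, Benjamini-Hochberg adjusted p = 0.0567). dpy-4, whose loss makes worms short and stout, had 584 and 1045 against 175 and 145, a difference of 2.29 ± 0.55 (limma, Benjamini-Hochberg adjusted p = 0.0983). Both genes were low in wild type, where lon-3 had 15.6, 13.7 and 5.28. The median change of the list from wild type was 3.05 in emr-1(gk119) against 2.08 in lem-2(tm1582).

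Molting factors gave a like picture. Of 47 genes for molting and cuticle processing 44 were tested. Of these, 0 were called higher and 1 lower, beside 0.746% and 0.358% of all loci. At an unadjusted limma p under 0.05, 16 were higher and 1 lower, beside 8.33% and 9.41%. In all, 41 had a positive difference, with a list median of 0.71. The member called lower was grd-3, a groundhog gene of the hedgehog-related family, with 39.8 and 25.3 in emr-1(gk119) against 107 and 111 in lem-2(tm1582) (limma, Benjamini-Hochberg adjusted p = 0.0235). The molting marker mlt-10 had 25 and 57.4 against 23.4 and 22.1, where 1 emr-1(gk119) library was close to lem-2(tm1582). Among called genes named after their values were seen, the peptidyl-prolyl isomerases fkb-3 and fkb-4 had 641 and 456 against 90.2 and 78.8 and 116.25 and 117 against 10.4 and 11.3. lon-8, a secreted regulator of body length, had 300.3 and 244 against 70.2 and 67.1. mab-7, needed for the shape of male tail rays, had 91.6 and 78.6 against 14.2 and 10.4. Many of these genes are switched on in pulses before each molt. The adult marker col-19 was lower in emr-1(gk119), without overlap of the groups, but not called. dpy-7, a furrow collagen used as a molting marker, had 25 and 29.7 against 14.9 and 16.7, also without a call. The part of developmental stage in these differences was not tested.

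**Figure D3:**
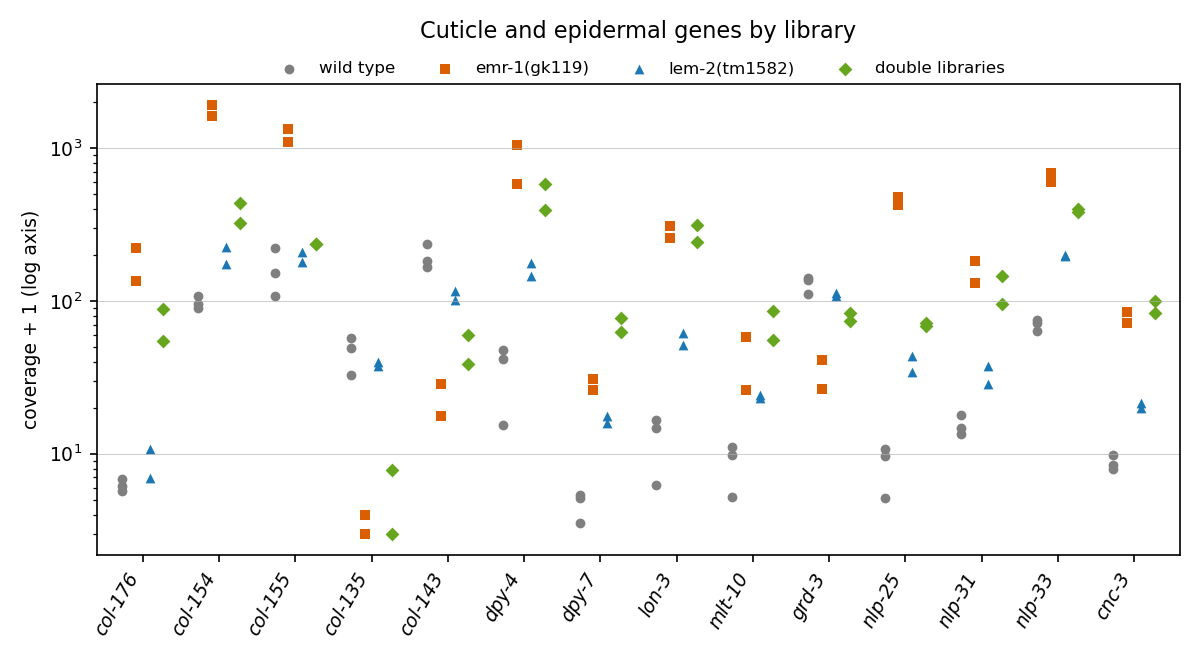
Coverage + 1 on a log axis in each of the 9 libraries for 14 cuticle and epidermal genes, with 1 symbol per library and colours for the 4 groups. The emr-1(gk119) squares are above the lem-2(tm1582) triangles for col-176, col-154, col-155 and the peptides nlp-25, nlp-31, nlp-33 and cnc-3, and below them for col-135, col-143 and grd-3.

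Epidermal antimicrobial peptides held further calls. These short glycine-rich peptides are made by the epidermis after fungal infection or wounding. Of 22 nlp and cnc genes 18 were tested, and 5 were called higher and 0 lower, beside 0.746% and 0.358% of all loci. The median difference was 0.66. nlp-25, on chromosome V at 19606180 to 19608419, had 475 and 422 in emr-1(gk119) against 42.5 and 33.2 in lem-2(tm1582) and 8.61, 9.72 and 4.17 in wild type. Its difference was 3.54 ± 0.34 (limma, Benjamini-Hochberg adjusted p = 0.00612). nlp-33 had 601 and 688 against 199 and 196, nlp-31 had 131 and 183 against 36.7 and 27.4, cnc-3 had 70.9 and 83.9 against 19 and 20.6, and nlp-30 had 77.1 and 103.08 against 30.6 and 35. The list was uneven, because nlp-29, the member most used as a reporter of infection, had 129.9 and 139 against 108 and 112.34 and was not called, and 6 members had a negative difference. Within the wider nlp family, 74 genes were tested and 4 called higher, all 4 from this epidermal group.

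Most yolk genes fell in emr-1(gk119). Vitellogenins are made in the gut of the adult hermaphrodite, secreted, and taken up by oocytes through the receptor RME-2. The yolk list holds the 6 vitellogenins and rme-2. Of these 7 genes, 0 were called higher and 5 lower, beside 0.746% and 0.358% of all loci. All 7 had both emr-1(gk119) libraries below both lem-2(tm1582) libraries, as had 24.1% of all loci. The median difference was -2.47, from -2.54 to -2.39 with 1 library left out. vit-3, on chromosome X at 3567355 to 3572549, had 32.5 and 22.5 in emr-1(gk119) against 398 and 450.04 in lem-2(tm1582), with 1051, 1005 and 1157 in wild type. The difference was -3.92 ± 0.28 (limma, Benjamini-Hochberg adjusted p = 0.00182), and it was called whichever library was left out. vit-4 had 109.8 and 116.14 against 1127 and 1268, vit-1 had 53.8 and 45.3 against 439.8 and 519, and vit-5 had 271 and 255 against 1532 and 1384. vit-6, the fifth called member, had the smallest of these differences, -1.40 ± 0.21 (limma, Benjamini-Hochberg adjusted p = 0.0371).

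The remaining members of the yolk list missed the threshold. vit-2 had 649.9 and 600.3 in emr-1(gk119) against 1815 and 1985 in lem-2(tm1582), a difference of -1.60 ± 0.33 (limma, Benjamini-Hochberg adjusted p = 0.0706), and rme-2 had 95.2 and 113 against 177 and 173 (limma, Benjamini-Hochberg adjusted p = 0.0541). Wild type was above both mutants at every vitellogenin, for example 3751, 3366 and 6678 at vit-2, and the median change from wild type was -3.05 in emr-1(gk119) against -0.86 in lem-2(tm1582). vit-3, vit-4 and vit-5 are alike in sequence, so reads may be shared among them. The ncRNAs F59D8.3 and T27A10.8 overlap the ends of vit-4 and vit-3 and were called lower too, with 13.4 and 13.6 against 216 and 228 and 14.4 and 6.33 against 219.9 and 174. The reads carry no strand, so their coverage cannot be told apart from that of the vitellogenins.

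**Figure D4:**
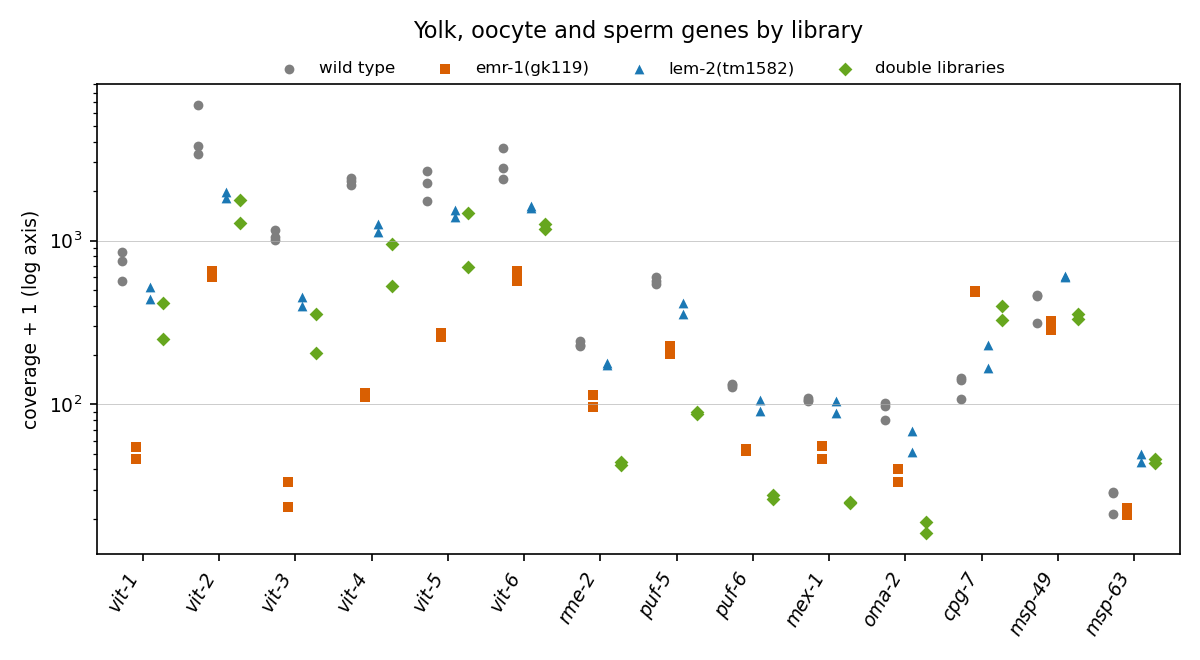
Coverage + 1 on a log axis in each of the 9 libraries for 14 yolk, oocyte and sperm genes, with 1 symbol per library and colours for the 4 groups. For all 6 vitellogenins the emr-1(gk119) squares are the lowest of the 9 libraries and the wild-type circles the highest, while cpg-7 is highest in emr-1(gk119).

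Most oocyte genes were lower in emr-1(gk119), though only 4 genes of the list were called. All 45 genes for oocytes and the eggshell were tested, and 1 was called higher and 3 lower, beside 0.746% and 0.358% of all loci. At an unadjusted limma p under 0.05, 29 were lower and 1 higher, beside 9.41% and 8.33%. In all, 43 had a negative difference. The median was -0.66. puf-5, a Pumilio-family repressor of oocyte messages, had 201 and 226 in emr-1(gk119) against 354 and 415 in lem-2(tm1582), with 544, 594 and 568 in wild type. Its difference was -0.85 ± 0.14 (limma, Benjamini-Hochberg adjusted p = 0.0426), the smallest of all called loci. Its relative puf-6 had 52.1 and 51.1 against 90.2 and 106, and mex-1, a zinc finger protein of early embryos, had 45.3 and 54.4 against 87.9 and 103.94. cpg-7, of the chondroitin proteoglycan family, was the exception upward with 486 and 491 against 228 and 167 (limma, Benjamini-Hochberg adjusted p = 0.0426). The calls of all 4 were lost whichever library was left out, with differences from -0.96 to -0.73 for puf-5 and from 1.10 to 1.55 for cpg-7.

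The lists for meiosis and for replication had negative medians and no call. Over all loci 0.746% were called higher and 0.358% lower, and 8.33% and 9.41% were so at an unadjusted limma p under 0.05. Of 48 genes for meiosis and the germ line, 0 were called, 14 were lower and 0 higher at an unadjusted limma p under 0.05, and the median difference was -0.41. pgl-3, a P granule protein, had 36.4 and 41.4 in emr-1(gk119) against 69.96 and 92 in lem-2(tm1582), with no overlap (limma, Benjamini-Hochberg adjusted p = 0.0602). Of 41 tested genes for replication licensing and forks, 0 were called, 12 were lower and 0 higher at an unadjusted limma p under 0.05, and the median was -0.39. rfc-2, a clamp loader subunit, had 15.2 and 22.4 against 43.4 and 39 (limma, Benjamini-Hochberg adjusted p = 0.073), and cye-1, cyclin E, had 35.8 and 51.2 against 74.2 and 83.8 (limma, Benjamini-Hochberg adjusted p = 0.0816). The germline marker pgl-1 had 52.5 and 68.2 against 85.2 and 105 and glh-1 had 35.7 and 39.5 against 46.7 and 68.8, neither called. In the 1982 tested loci from the part of the study's germline list used here, 7 were called higher and 12 lower, and the median was -0.18. rme-2 and oma-2, oocyte markers, were also lower in emr-1(gk119), oma-2 with 39.3 and 32.7 against 49.9 and 67.9, without a call, and their part in these differences was not tested.

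Major sperm proteins differed from the oocyte genes in where wild type lay. They are the cytoskeletal proteins of crawling sperm, and hermaphrodites finish making sperm before they turn to oocytes. All 30 msp genes were tested, 0 were called, and all 30 had a negative difference, with a median of -0.54. At an unadjusted limma p under 0.05, 18 were lower and 0 higher, beside 9.41% and 8.33% of all loci. The called share of all loci was 1.10%. The median change from wild type was 0.03 in emr-1(gk119) against 0.53 in lem-2(tm1582). msp-49 had 285 and 322 in emr-1(gk119) against 609.6 and 594 in lem-2(tm1582) and 456, 312 and 462 in wild type, so that lem-2(tm1582) was the higher group. msp-63 had 22.1 and 20.1 against 48.9 and 43.4, a difference of -1.09 ± 0.20 (limma, Benjamini-Hochberg adjusted p = 0.0563). The genes are near-identical copies, and their values are not independent. Of 41 other tested sperm genes, 1 was called, ssp-19, also an MSP-domain protein, with 19.1 and 13.6 against 51.1 and 41.9 (limma, Benjamini-Hochberg adjusted p = 0.0317).

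**Figure D5:**
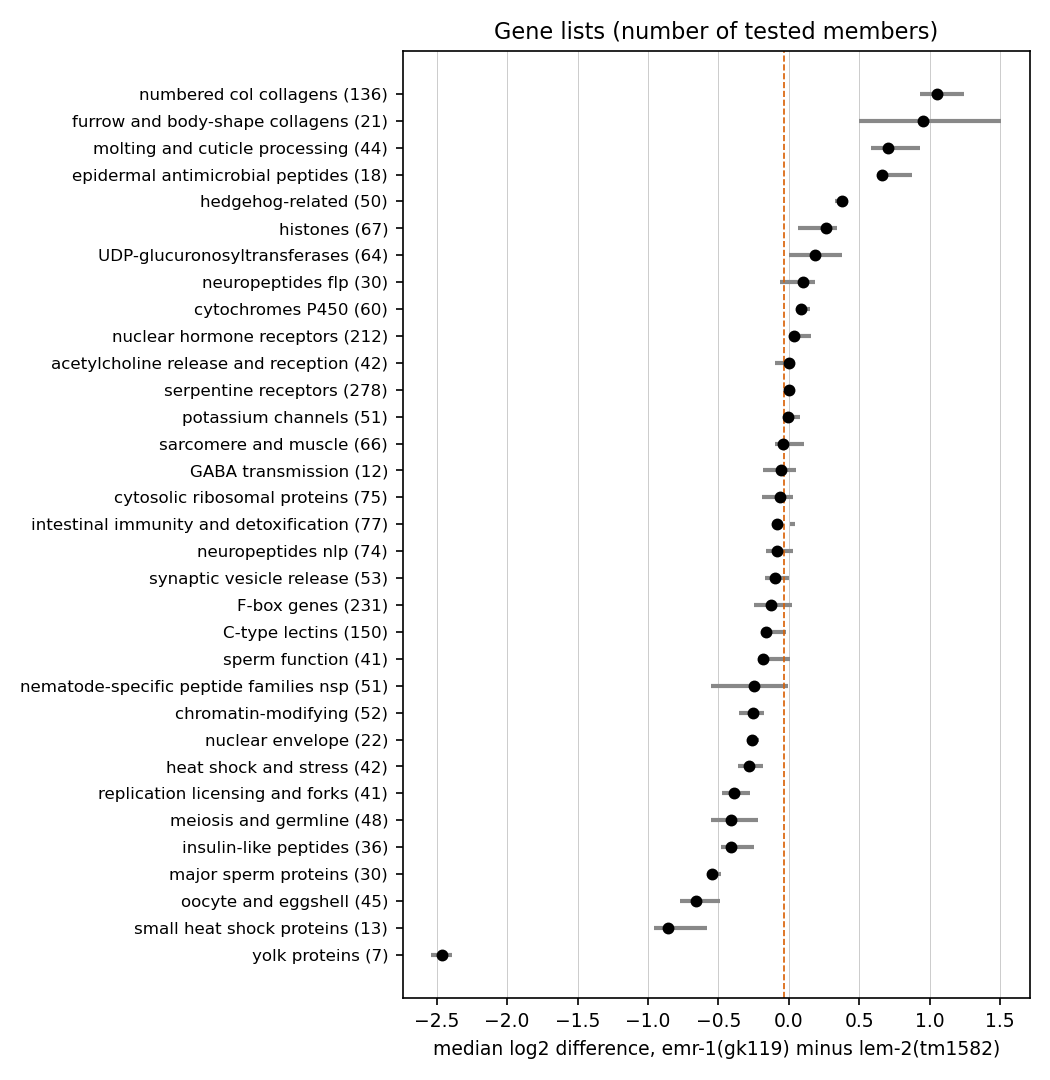
The median log2 difference, emr-1(gk119) minus lem-2(tm1582), of each of the 33 gene lists and families (points), with the range of the 4 medians when 1 library was left out (bars) and the number of tested members in brackets. The dashed line is the median of all loci, -0.03. Yolk proteins lie lowest at -2.47 and numbered col collagens highest at 1.06.

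Some called falls were outside these groups. ZK813.2, on chromosome X at 3443826 to 3444191, had 38.9 and 12.33 in emr-1(gk119) against 439.8 and 474 in lem-2(tm1582) and 843, 579 and 1462 in wild type (limma, Benjamini-Hochberg adjusted p = 0.0471). nspc-18 and its neighbour nspc-17, of a nematode-specific peptide family, had 3.89 and 2 against 59.7 and 49.3 and 20.4 and 14.8 against 123 and 99.2. ule-5, of a group expressed in the uterus, had 108 and 90.4 against 869 and 751, and spex-3 had 20.4 and 32.1 against 230.0 and 495. W02D9.7 had 96.4 and 61.8 against 629 and 575. F08G2.5 was different, because 3.89 and 8.44 in emr-1(gk119) was near the wild-type values of 11.9, 12.7 and 6.33, whereas lem-2(tm1582) had 70.2 and 46.2 and the double libraries 136 and 175. With 1 library left out, nspc-18 was called in 1 of 4 fits and the other 6 genes in none.

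Chromatin-modifying genes, which the study also examined, held 1 call. Of 52 tested, 0 were called higher and 1 lower, beside 0.746% and 0.358% of all loci. At an unadjusted limma p under 0.05, 12 were lower and 0 higher, beside 9.41% and 8.33%. The median of the list was -0.25. The called member was set-33, a SET-domain gene that the annotation lists as a pseudogene, on chromosome X at 257329 to 260110. It had 1 and 1 in emr-1(gk119) against 19.6 and 31.7 in lem-2(tm1582) and 17.9, 26.8 and 21.9 in wild type, and also 1 and 2 in the double libraries. The difference was -3.70 ± 0.33 (limma, Benjamini-Hochberg adjusted p = 0.00442). The emr-1(gk119) and double libraries were at or under 2 at this locus, and wild type and lem-2(tm1582) at 17.9 or more.

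Genes of nerve and muscle, which the study also examined, are given beside all loci. Of all loci 1.10% were called, 0.746% higher and 0.358% lower, and 17.7% were at an unadjusted limma p under 0.05. At the called share, short lists hold few calls or none. Of 42 tested genes for acetylcholine release and reception 0 were called and 1 was lower at an unadjusted limma p under 0.05, with a median of 0.00. The lists for GABA (12 tested), synaptic vesicle release (53), potassium channels (51) and the sarcomere (66) also had 0 calls, with 0, 2, 5 and 7 members at an unadjusted limma p under 0.05 and medians of -0.05, -0.10, 0.00 and -0.04. In the sarcomere list, act-2 had 414 and 465 in emr-1(gk119) against 758 and 890.2 in lem-2(tm1582) (limma, Benjamini-Hochberg adjusted p = 0.0813), and pat-4, the integrin-linked kinase, had 11.9 and 12.31 against 21.8 and 21.2 (limma, Benjamini-Hochberg adjusted p = 0.132). twk-18, a potassium channel of muscle, had 17.1 and 17.4 against 38.8 and 29.2 (limma, Benjamini-Hochberg adjusted p = 0.0787). acr-18, an acetylcholine receptor subunit, had 2 and 1 against 4 and 4 (limma, Benjamini-Hochberg adjusted p = 0.311). In the study's own lists, 3 of 843 muscle loci were called higher and 4 lower, 0 of 46 neuron loci, and 1 of 332 pan-neuronal loci, higher. Of 1643 intestinal loci, 10 were called higher and 6 lower, of 1163 ubiquitous loci 3 and 2, and of 98 serpentine receptor loci 0.

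Smaller families held single calls in both directions. Beside them, 0.746% of all loci were called higher and 0.358% lower, and 8.33% and 9.41% were so at an unadjusted limma p under 0.05. Among 36 tested insulin-like genes, ins-5 had 14.3 and 12.4 in emr-1(gk119) against 1 and 1.5 (limma, Benjamini-Hochberg adjusted p = 0.00703) and ins-35 had 19 and 20.9 against 5.69 and 6.17, while ins-26 had 2 and 1.5 against 11 and 10.8 (limma, Benjamini-Hochberg adjusted p = 0.0121). The first 2 rose and the last fell, and the median of the family was -0.41. Of 64 tested UDP-glucuronosyltransferases, which add sugar to foreign and waste compounds, 3 were called higher, ugt-6 with 46.2 and 49.1 against 9.44 and 10.7, ugt-33 with 6.06 and 7.39 against 1.5 and 1 and ugt-23 with 128 and 99 against 50.6 and 49.6. Of 60 tested cytochromes P450, 0 were called and 15 were at an unadjusted limma p under 0.05, 13 of them higher. Of 150 tested C-type lectins 1 was higher, clec-166 with 61.2 and 85.3 against 25.6 and 22.1, and 3 were lower, of which clec-223 had 11.39 and 4 against 59.2 and 44.3. Of 77 tested genes for gut immunity and detoxification, 2 were higher and 1 lower, the glutathione transferase gst-10 with 783 and 750.2 against 222 and 175, the lysozyme lys-6 with 90.1 and 93.9 against 37.9 and 44.9, and the cathepsin B-like protease cpr-3 with 4.67 and 6.33 against 17.9 and 18.4.

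Stress, ribosome and histone genes held no call. For reference, 1.10% of all loci were called and 17.7% were at an unadjusted limma p under 0.05, 8.33% higher and 9.41% lower. Small heat shock proteins had a median of -0.86 over 13 tested genes, with 5 lower and 0 higher at an unadjusted limma p under 0.05, and 11 negative differences. hsp-12.3 had 45.3 and 35.4 in emr-1(gk119) against 103.58 and 94.2 in lem-2(tm1582) (limma, Benjamini-Hochberg adjusted p = 0.0607), and hsp-12.6 had 8.56 and 12.33 against 39.9 and 23.2 (limma, Benjamini-Hochberg adjusted p = 0.167). Cytosolic ribosomal proteins had a median of -0.07 over 75 genes with 0 at an unadjusted limma p under 0.05. Their largest difference was at rpl-39, where 1 emr-1(gk119) library had 9961 and the other 4551, against 4448 and 4762 in lem-2(tm1582). Histone genes had a median of 0.27 over 67, with 19 higher and 5 lower at an unadjusted limma p under 0.05. his-71, a variant histone H3, had 93.5 and 123 against 17.9 and 15.9 (limma, Benjamini-Hochberg adjusted p = 0.0857). Nuclear hormone receptors (212 tested), F-box genes (231), flp neuropeptides (30) and serpentine receptors (278) also held 0 calls, with 27, 26, 3 and 31 at an unadjusted limma p under 0.05, and medians of 0.04, -0.12, 0.10 and 0.00. Most histone messages lack a poly(A) tail, which the libraries select for.

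A few called loci were low in every library labelled with lem-2(tm1582). F35H10.6, on chromosome IV at 8299936 to 8300647, had 83.4 and 139 in emr-1(gk119) against 2 and 1 in lem-2(tm1582), 132, 188 and 69.7 in wild type and 1.5 and 2 in the double libraries. The difference of 5.47 ± 0.48 (limma, Benjamini-Hochberg adjusted p = 0.00424) thus went with low coverage in the 4 libraries labelled with lem-2(tm1582). rnh-1.1, an RNase H, and cls-3, of the CLASP family, were also lower in the lem-2(tm1582) and double libraries than in the other 5, and are named after their values were seen. rnh-1.1 had 15.2 and 26.7 against 3 and 1, and cls-3 had 27.5 and 21.2 against 5.22 and 4.44. Among called loci these 3 were the ones with the 4 lem-2(tm1582) and double libraries below the other 5, and 18 had them above, as in 0.434% and 3.16% of all tested loci. Allele and strain background cannot be told apart here.

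By position the calls were uneven. Chromosome V held 53 higher and 15 lower of 3795 tested loci (1.79%), and chromosome III 2 higher and 4 lower of 2638 (0.227%), with 0.505% on I, 1.39% on II, 1.10% on IV and 1.36% on X. The calls on IV, 39 higher and 9 lower, count 10 piRNA annotations at or near col-137 as separate loci. Windows of 1 Mb were taken in WBcel235, and 2 of them held 12 calls each, more than any other, all higher in emr-1(gk119). The first is at 3 to 4 Mb of chromosome V. T28A11.4, T28A11.6, T28A11.20 and F35F10.5 lie close together there. T28A11.6, a pseudogene, had 38.9 and 46.7 against 2 and 3, T28A11.20 had 10.4 and 5.28 against listings of 0, and F35F10.5 had 117 and 53.8 against 2 and 4. nlp-30, nlp-31, grl-27 and C36C5.14 are in the same window, further off.

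The second window, at 16 to 17 Mb of chromosome IV, held 144 tested loci. Its 12 calls are K03D3.2, col-137 and 10 loci annotated as piRNAs. For these 10, col-137 is the nearest coding gene, at most 1573 bp away. 21ur-42, within col-137, had 25.9 and 45.3 in emr-1(gk119) against 1 and 1, and 21ur-15692, beside it, had 29 and 37.9 against 1 and 1. Mature piRNAs of this kind are 21 bases long and lack the poly(A) tail by which these libraries were selected, and whether longer transcripts across these sites gave this coverage was not tested. Of 24 called piRNA annotations, 16 overlap a coding gene. 21ur-3208 and 21ur-14830, both within clec-190, had 434 and 165 against 13.6 and 9.44 and 254 and 125 against 2 and 6.78.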

How the data were processed

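RNA-seq was made from whole young adult worms with the TruSeq kit after poly(A) selection, without strand. Per the study's methods, the authors aligned reads with TopHat to WS231, took the median coverage of each exon, quantile-normalized it over the 9 libraries and took the median over exons. The deposited values are this signal (coverage) per transcript, so depth in reads is unknown. Here 48951 of 49395 transcripts (99.1%) were matched by name to WBcel235, the build of all coordinates, and averaged per locus. Rows with a mean coverage of 1 or more were fitted on log2(coverage + 1) with limma 3.58.1 in R 4.3.3, all 9 libraries in 1 fit with an intensity trend, two-sided, with Benjamini-Hochberg adjustment and a threshold of 0.05. The code was tested on simulated data. No column was without a sample.

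Samples were grouped by genotype label. The labels do not say whether replicates were separate cultures, so p-values measure only the spread between these samples. Overlapping and antisense genes cannot be told apart. Which lanes or food each group had is not given in the sources used here. The alternatives were other pseudocounts, coverage minimums, fits, a replicate block, repeated normalization and leaving out each library. Members and gene lists were chosen with earlier results of these data known.

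Named genes are emr-1, lem-2, lmn-1, baf-1, the nearest tested neighbours, the 15 largest called differences each way with non-overlapping groups and a mean coverage of at least 5, and up to 4 called members of each list by size, or 2 where none was called. The others, among them sun-1, npp-20, npp-22, C53H9.3, chaf-2, tag-96, vit-2, vit-6, rme-2, oma-2, mlt-10, nlp-29, pgl-1, glh-1, the spe and T28A11 genes, and the piRNA loci other than 21ur-3208 and 21ur-14830, were chosen after their values were seen.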

Additional observations from a re-analysis of the deposited data

How the results depend on the processing

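The counts of called loci moved with the fit. The direction of the 216 called loci could not turn with 1 library left out, since their groups did not overlap. Higher and lower loci numbered 257 and 109 with a pseudocount of 5, 281 and 215 with a coverage minimum of 5, 0 and 0 with the 4 compared libraries alone (limma, 3189 at an unadjusted p under 0.05), 233 and 132 with quantile normalization repeated, and 70 and 39 without the double group, an alternative chosen after seeing the data. Without a coverage minimum 123 were lower. Transcripts numbered 298 and 134, 336 and 258, 0 and 0, 284 and 163, and 66 and 38 under the same settings, and 134 were lower without a minimum. The replicate block gave 73 and 22 loci and 80 and 27 transcripts; replicates with the same number did not deviate together (r = -0.002), so they were not treated as paired. With 1 library left out, 15 to 42 loci were higher and 3 to 31 lower, and 15 to 46 and 2 to 30 transcripts. The cause of these shifts was not tested, beyond the fewer samples in the fits that left libraries out.

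With a pseudocount of 5 the median differences were 0.48 for molting, 0.37 for epidermal peptides and -0.52 for major sperm proteins, which had -0.46 with normalization repeated. A minimum of 5 gave 1.42 for epidermal peptides and 1.54 for numbered col collagens. With 1 library left out, the medians ran from -0.56 to -0.48 for major sperm proteins, from -0.55 to -0.22 for meiosis and from 0.58 to 0.93 for molting. Among loci that were not called, the sign turned with 1 library left out at srx-96 (-5.39 to 0.50), W01G7.4 (-0.62 to 0.026), egl-30 (-0.21 to 0.30), baf-1 (-0.29 to 0.65), rpl-39 (-0.016 to 1.11) and rab-3 (-0.20 to 1.80).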
